A study of Equus caballus with 68 samples.

Results

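The TGF-beta group described here holds 10 genes: the ligands TGFB1, TGFB2 and TGFB3, the receptors TGFBR1 and TGFBR2, the signal-carrying SMAD2 and SMAD3, the inhibitory SMAD6 and SMAD7, and TGFBI, a matrix protein induced by TGF-beta. They were chosen by gene symbol, and all 10 were found among the 30371 genes of the expression table, each under a single entry. All except TGFB2 passed the filter on low values (at least 0.5 GeTMM in at least 7 libraries), so that 9 of 10 were among the 14570 genes tested. GeTMM is a read count per kilobase of gene, relative to the total of the library and scaled between libraries, so levels can be compared between genes as well as between samples.

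TGF-beta is secreted in a latent form and becomes active when it is released from its prodomain by integrins, thrombospondin or proteases. The active ligand binds the type II receptor TGFBR2, which recruits and phosphorylates the type I receptor TGFBR1, and TGFBR1 in turn phosphorylates SMAD2 and SMAD3, which enter the nucleus with SMAD4. SMAD7 and SMAD6 are induced by the pathway or by the related BMP pathway and block the receptors. In myeloid cells and in joints TGF-beta is known for limiting inflammation, clearing apoptotic cells and building matrix, and in excess for fibrosis.

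BMNC, the mononuclear cells of sternal bone marrow isolated on a density gradient, came from 8 adult Thoroughbred horses aged 3 to 9 years (6 geldings and 2 females). Cells of each horse were sequenced before culture (0 hours, 8 libraries) or after culture in cell-depleted synovial fluid of the same horse. The fluid was drawn either from normal middle carpal joints (SF) or from radiocarpal joints with synovitis induced by lipopolysaccharide (ISF). Inflammation and joint therefore cannot be told apart in a difference between the fluids. More of the stored fluid was added to the cultures every 48 hours. The cultures were sampled at 48 hours and 10 days (7 horses per fluid) and at 96 hours and 6 days (8 horses per fluid). Moon had no library at 48 hours and Flash none at 10 days. Cells and fluid came from the same horse throughout. Each cultured library came from 1 well. BMNC are a mixed population, so a change in the RNA of a gene per cell and a change in the share of the cells that express it cannot be told apart in these libraries.

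The 68 libraries held 15.7 to 36.0 M reads on genes (median 22.3 M). The SF library of the horse Moon at 6 days stood apart, with TGFB1 at 481 GeTMM against 124 to 201 in the other 7 SF libraries of that day and TGFBR1 at 2.30 against 28.9 to 36.7. Its GeTMM values summed to 2.32e+06 over all genes, against 905668 to 1.01e+06 in those 7 libraries. How far this larger scale bears on its TGFB1 value was not tested. The 96 hour ISF cultures of Dealings and Dreamer had been found in earlier work on these data to resemble each other's horse more than their own. Their labels were taken as given. Counts of horses, ratios within a horse, the replicate block and omission of either horse depend on these labels, and the main fit, without a term for horse, does not. Where a call of a member, or of a named pathway gene between the fluids, changed without these libraries, both values are given. The same holds for the printed counts of members and listed genes between the fluids.

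From 0 to 48 hours, 6 of the 9 tested members passed an FDR of 0.05 in ISF (52.7% of all tested genes did) and 5 of 9 in SF (45.4% of all tested genes), both set against the same 0 hour libraries, counts near the share of all genes. TGFBR1, TGFBR2, TGFB3 and SMAD2 rose and SMAD3 fell in each fluid, and TGFB1 fell in ISF. From 48 to 96 hours the count was 3 of 9 in ISF (TGFB3 and TGFBR2 up, SMAD2 down, background 19%) and 2 of 9 in SF (TGFBR2 up, SMAD7 down, background 27.3%). From 96 hours to 6 days TGFBR2 rose in ISF (1 of 9, background 6.38%) and no member passed in SF (0 of 9, background 2.05%, and 0 of 9 at an unadjusted p under 0.05). From 6 to 10 days no member passed in ISF (0 of 9, background 10.5%, and 1 of 9 at an unadjusted p under 0.05) and SMAD7 rose in SF (1 of 9, background 4.78%).

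Between the fluids, TGFB3, TGFBR1, SMAD7 and TGFBI were higher in ISF and SMAD2 was lower, each at 1 time point or more. At 48 hours 2 of 9 members differed, TGFBR1 and SMAD7 (1.68% of all tested genes differed). At 96 hours 4 of 9 differed, with TGFB3, TGFBR1 and SMAD7 higher and SMAD2 lower in ISF (background 10.5%). At 6 days 5 of 9 differed, TGFBI having joined those higher in ISF (background 30.2%), and at 10 days only TGFB3 was past the threshold (1 of 9, background 20.8%). Without the 96 hour ISF cultures of Dealings and Dreamer the counts were 2, 2, 5 and 1 in order of time, and without Moon's SF culture of day 6 3, 5, 4 and 3. Shares of all tested genes without these cultures are not given, so these counts have no background beside them. TGFB1, TGFBR2, SMAD3 and SMAD6 were not past the threshold between the fluids at any of the 4 times.

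**Figure D1:**
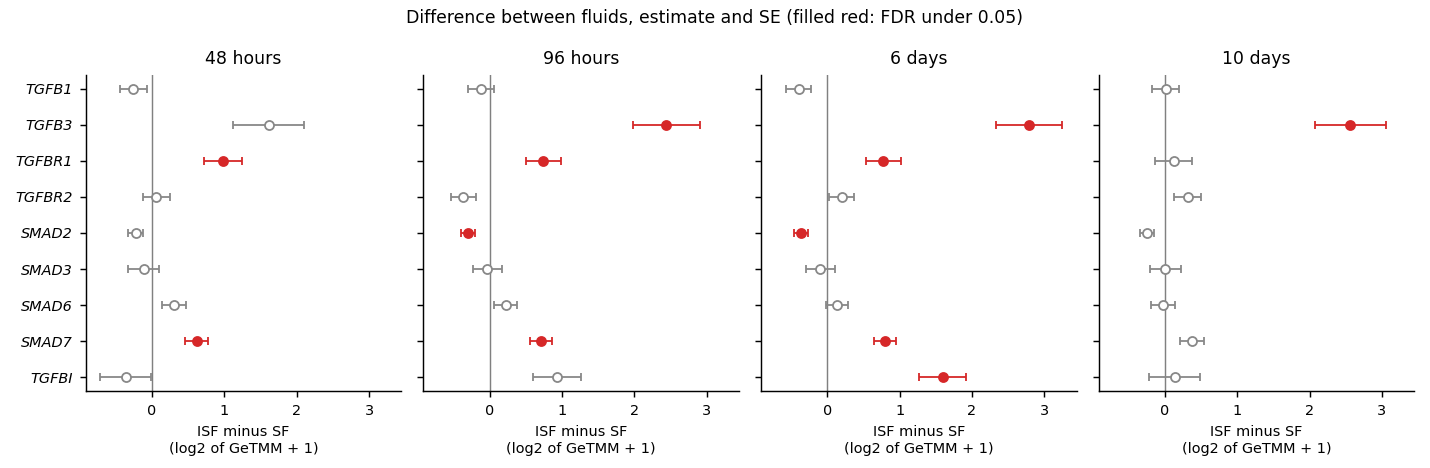
Difference between ISF and SF for the 9 tested members at each time point, on the scale of log2(GeTMM + 1). Points are estimates and bars standard errors from the fit of all 68 libraries; filled red points passed an FDR of 0.05. TGFB3 had the largest difference at every time, reaching 2.79 at 6 days, while SMAD2 lay at -0.36 on that day.

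TGFB1, the ligand most abundant in immune cells, was the dominant ligand in every library. In fresh BMNC it ranged from 135 to 250 GeTMM with a median of 201. In ISF the lowest, median and highest values were 109, 138 and 195 at 48 hours, then 103, 147 and 192 at 96 hours, then 103.96, 148 and 193 at 6 days, and last 107, 183 and 240 at 10 days. In SF they were 128, 152 and 201 at 48 hours, then 120, 151 and 291 at 96 hours, then 124, 184 and 481 at 6 days, and last 154, 178 and 260 at 10 days. All groups overlapped, and the ratio of the mean at 10 days to that before culture was 0.96 in ISF and 0.938 in SF. The fall from 0 to 48 hours in ISF (log2 difference -0.51, SE 0.18, FDR = 0.0151, lower in 5 of 7 horses) was the only change past the threshold, and it was lost without Dealings or Dreamer (FDR = 0.0735 to 0.075). At 6 days TGFB1 was lower in ISF than in SF in 7 of 8 horses, by -0.40 on the log2 scale (SE 0.18, FDR = 0.0819). With the replicate block for horse this difference had an FDR of 0.0443, without RimRun one of 0.0479 (0.0443 to 0.434 over all alternatives), and without the SF library of Moon it was -0.20 (FDR = 0.324).

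TGFB2 was close to the limit of detection in these cells. No read was found in 24 of the 68 libraries, and 45 libraries held 3 reads or fewer, a number that corresponds to between 0.0613 and 0.178 GeTMM depending on the library. The highest library was the SF culture of RimRun at 6 days, with 2.78 GeTMM from 86 reads, followed by the SF and ISF cultures of Moon on that day (1.13 and 0.940 GeTMM). Only 5 libraries reached 0.5 GeTMM, so TGFB2 did not pass the filter and was not tested. Its means in ISF and SF were 0.161 and 0.553 at 6 days, lower in ISF in 6 of 8 horses, and 0.0673 and 0.247 at 10 days, lower in ISF in 5 of 7.

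**Figure D2:**
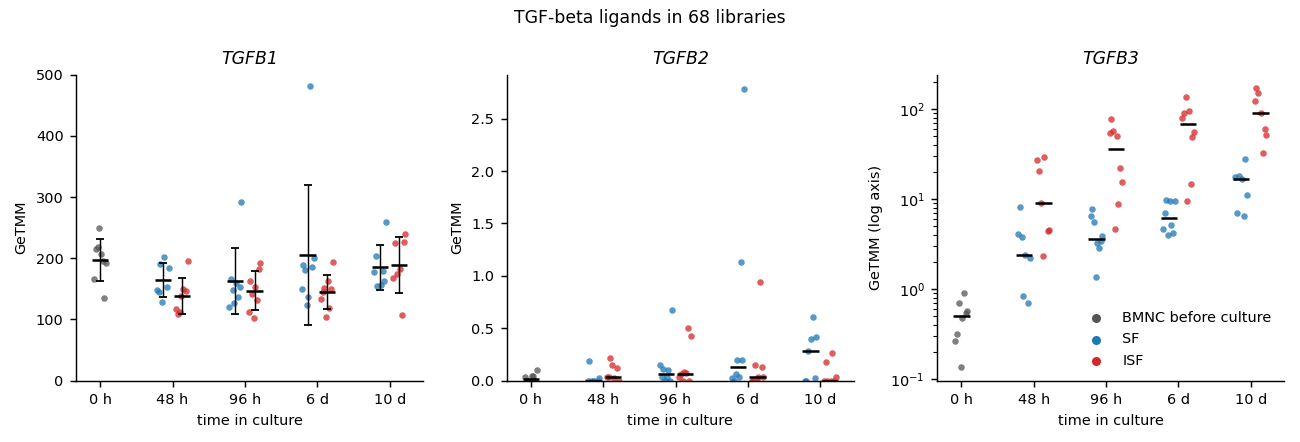
TGFB1, TGFB2 and TGFB3 in each library (points, 1 per horse) before culture and at 4 times in SF or ISF. Black lines are means with SD bars for TGFB1 and medians without bars for TGFB2 and TGFB3, and the TGFB3 axis is logarithmic. TGFB3 lay between 0.137 and 0.900 GeTMM before culture and between 32.6 and 170 in ISF at 10 days, and TGFB1 stayed between 103 and 291 in all libraries but that of Moon in SF at 6 days.

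TGFB3, the isoform best known from developing and healing tissues, had the largest log2 difference between the fluids among the tested members. It was nearly silent in fresh BMNC, at 0.137 to 0.900 GeTMM (median 0.506, 5 to 34 reads). In ISF the lowest, median and highest values were 2.31, 9.11 and 29.6 at 48 hours, then 4.62, 35.9 and 78.2 at 96 hours, then 9.38, 67.9 and 137 at 6 days, and last 32.6, 89.7 and 170 at 10 days. In SF they were 0.698, 2.38 and 8.20 at 48 hours, then 1.34, 3.61 and 7.68 at 96 hours, then 3.94, 6.10 and 9.75 at 6 days, and last 6.39, 16.8 and 27.7 at 10 days. Group means thus went from 0.486 before culture to 96.8 ± 52.2 (SD, n = 7) in ISF, a ratio of 199, and to 14.9 ± 7.45 (SD, n = 7) in SF, a ratio of 30.6. Ordered by their means, the groups ran from 0 hours through SF at 48 hours, 96 hours and 6 days to ISF at 48 hours, SF at 10 days and ISF at 96 hours, 6 days and 10 days, and every pair of neighbours in this order overlapped in range.

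The ISF culture held more TGFB3 than the SF culture of the same horse in each of the 30 pairs. At 96 hours the log2 difference was 2.44 (SE 0.46, FDR = 0.000137, 8 of 8 horses), at 6 days 2.79 (SE 0.46, FDR = 2.8e-06, 8 of 8) and at 10 days 2.56 (SE 0.49, FDR = 7.75e-05, 7 of 7). Only at 10 days did the ranges of the fluids not overlap, and Flash has no library at that time. Flash was the lowest ISF library at 96 hours and 6 days, at 4.62 and 9.38 GeTMM. The next lowest ISF values, 8.78 and 14.5 in Moon, lay above the highest SF values, 7.68 and 9.75. Within a horse the ratio of ISF to SF ran from 3.05 to 15.4 at 96 hours (median 7.39), from 2.38 to 17.1 at 6 days (median 10.8) and from 2.18 to 24.0 at 10 days (median 5.35). These 3 calls held under each of the 17 alternative settings. At 48 hours the ratio was already 2.06 to 12.4 (median 2.76) and the log2 difference 1.61 (SE 0.49), but the FDR was 0.0712. With the replicate block this FDR was 0.00258, without Flash or Moon 0.0339 to 0.0352, and without Moon's SF culture of day 6 0.0415. Over all alternatives it was 0.00258 to 0.295. Moon has no library at 48 hours, so its omission acts there through the shared fit.

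Over time TGFB3 rose in both fluids within the first 48 hours, by 2.90 in ISF (SE 0.47, FDR = 5.26e-07) and by 1.28 in SF (SE 0.47, FDR = 0.0224) on the log2 scale, in 7 of 7 horses each. The SF rise was lost without Catnip or Dealings (FDR = 0.0663 to 0.0931). The 2 horses with the lowest ISF values at 96 hours, Flash and Moon, were also lowest in ISF at 6 days. From 48 to 96 hours the ISF value rose by a further 1.29 (SE 0.47, FDR = 0.0458, 7 of 7 horses). Omitting Catnip, Dealings, Dreamer, Lurie, Ollie or RimRun moved this FDR to between 0.0608 and 0.169, and without the 96 hour ISF cultures of Dealings and Dreamer the change was 0.85 (FDR = 0.29). The later steps in ISF, 0.92 to 6 days (8 of 8 horses) and 0.74 to 10 days (5 of 7), were not past the threshold, nor were the 3 later steps in SF, of 0.46, 0.58 and 0.97. The ISF step to 10 days sets groups with and without Flash against each other, and its mean within the 7 horses was 0.41.

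Because TGFB1 moved little, the make-up of the ligand pool shifted with TGFB3. TGFB3 made up 0.0546% to 0.459% of the summed GeTMM of the 3 ligands before culture. Its share at 10 days was 17.7% to 46.1% in ISF (median 32.9%) and 3.35% to 14.5% in SF (median 8.88%). At 6 days the share reached 47.5% in 1 ISF library, with medians of 30.7% in ISF and 3.32% in SF. The summed ligand level itself overlapped between the fluids at 10 days, at 140 to 395 GeTMM in ISF and 172 to 271 in SF.

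**Figure D3:**
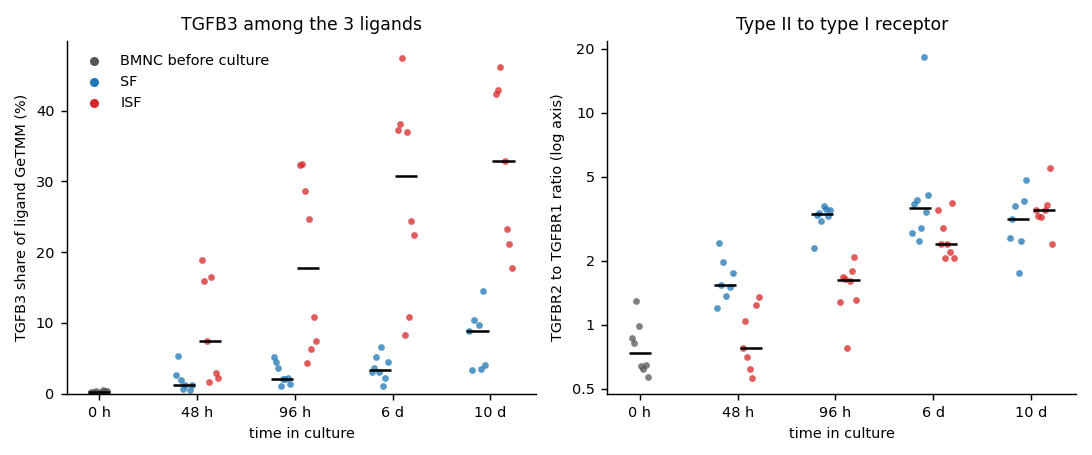
Left, TGFB3 as a percentage of the summed GeTMM of TGFB1, TGFB2 and TGFB3 in each library; right, the ratio of TGFBR2 to TGFBR1 on a logarithmic axis. Points are horses and black lines group medians. The median TGFB3 share in ISF went from 7.49% at 48 hours to 32.9% at 10 days, and the receptor ratio of the 2 fluids did not overlap at 96 hours; the SF library of Moon at 6 days is the point at 18.4.

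TGFBR1, the type I receptor kinase, rose on culture and did so further in ISF during the first days. It ranged from 7.92 to 14.7 GeTMM (median 12.3) before culture. At 48 hours it was 37.8 to 82.8 in ISF (median 48.1) and 18.9 to 30.1 in SF (median 25.9), and at 96 hours 36.1 to 69.3 (median 40.9) and 18.8 to 34.1 (median 27.6), with no overlap between the fluids at either time. At 6 days the values were 30.9 to 55.6 in ISF (median 41.6) and 2.30 to 36.7 in SF (median 31.7), and at 10 days 33.5 to 67.7 (median 45.5) and 27.8 to 52.2 (median 39.1). The receptor thus stood near its later level in ISF by 48 hours, while the SF median was highest at 10 days.

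The rise of TGFBR1 from 0 to 48 hours was 1.98 in ISF (SE 0.25, FDR = 8.91e-10) and 1.00 in SF (SE 0.25, FDR = 0.000774), in 7 of 7 horses each and under all 17 alternatives. ISF exceeded SF by 0.98 at 48 hours (SE 0.26, FDR = 0.0316, 7 of 7 horses) and by 0.74 at 96 hours (SE 0.24, FDR = 0.0375, 8 of 8 horses). Both calls were near the threshold: omitting any horse but Moon took the FDR above 0.05 (0.0602 to 0.143 at 48 hours and 0.056 to 0.13 at 96 hours), and so did omission of the ISF cultures of Dealings and Dreamer for the 96 hour call (FDR = 0.0529) and a pseudocount of 0.1 for both (FDR = 0.0591 and 0.0537). Moon has no library at 48 hours, so at that time its values act only through the spread shared in the fit. Without Moon's low SF culture of day 6 the FDRs of these 2 calls were 3.3e-05 and 0.000127. At 6 days the difference was 0.77 (SE 0.24, FDR = 0.0115, 6 of 8 horses) and rested in large part on that library, without which it was 0.36 (FDR = 0.0505; 0.0889 without Moon in any group and 0.222 with just these 2 groups in the fit). At 10 days it was 0.12 (SE 0.26, FDR = 0.805, 3 of 7 horses).

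TGFBR2, the ligand-binding type II receptor, rose in both fluids, over the first 3 intervals in ISF and the first 2 in SF. From 7.10 to 13.5 GeTMM before culture (median 9.18) it reached 26.0 to 65.3 in ISF (median 46.8) and 26.0 to 59.7 in SF (median 42.9) at 48 hours. The values at 96 hours were 52.0 to 90.2 in ISF (median 65.0) and 62.1 to 112 in SF (median 90.2), and at 6 days 96.4 to 124 (median 106) and 42.3 to 137 (median 102). At 10 days they were 109 to 203 in ISF (median 161) and 86.6 to 146 in SF (median 134), means of 157 ± 31.6 and 126 ± 23.1 (SD, n = 7) that were 16.7 and 13.4 times the mean before culture. No cultured library came down to the level of fresh cells.

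The first 48 hours brought the largest step, 2.09 in ISF (SE 0.18, FDR = 6.17e-16) and 2.03 in SF (SE 0.18, FDR = 2.59e-15). In ISF the rise went on by 0.63 to 96 hours (SE 0.18, FDR = 0.00682) and by 0.69 to 6 days (SE 0.17, FDR = 0.00731), and in SF by 1.05 to 96 hours (SE 0.18, FDR = 3.57e-06), in every horse each time and under all 17 alternatives. The last ISF step, 0.51 to 10 days (SE 0.18, 7 of 7 horses), had an FDR of 0.0523, which was 0.0148 with the replicate block, 0.021 to 0.0497 without Dealings or Moon, and 0.0196 without Moon's SF culture of day 6; over all alternatives it was 0.0148 to 0.168. The later SF steps, 0.13 to 6 days (SE 0.17, FDR = 0.725, higher in 7 of 8 horses) and 0.39 to 10 days (SE 0.18, FDR = 0.177, 7 of 7), were not past the threshold. Between the fluids TGFBR2 was lower in ISF in 8 of 8 horses at 96 hours, by -0.36, without passing the threshold (SE 0.17, FDR = 0.175).

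The balance of the receptors differed between the fluids in the first days. The ratio of TGFBR2 to TGFBR1 was 0.565 to 1.29 before culture (median 0.734). At 96 hours it was 0.776 to 2.10 in ISF (median 1.63) and 2.30 to 3.64 in SF (median 3.32), and at 10 days it was 2.41 to 5.49 (median 3.46) and 1.75 to 4.81 (median 3.16). These ratios are descriptions of the same values and were not tested.

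**Figure D4:**
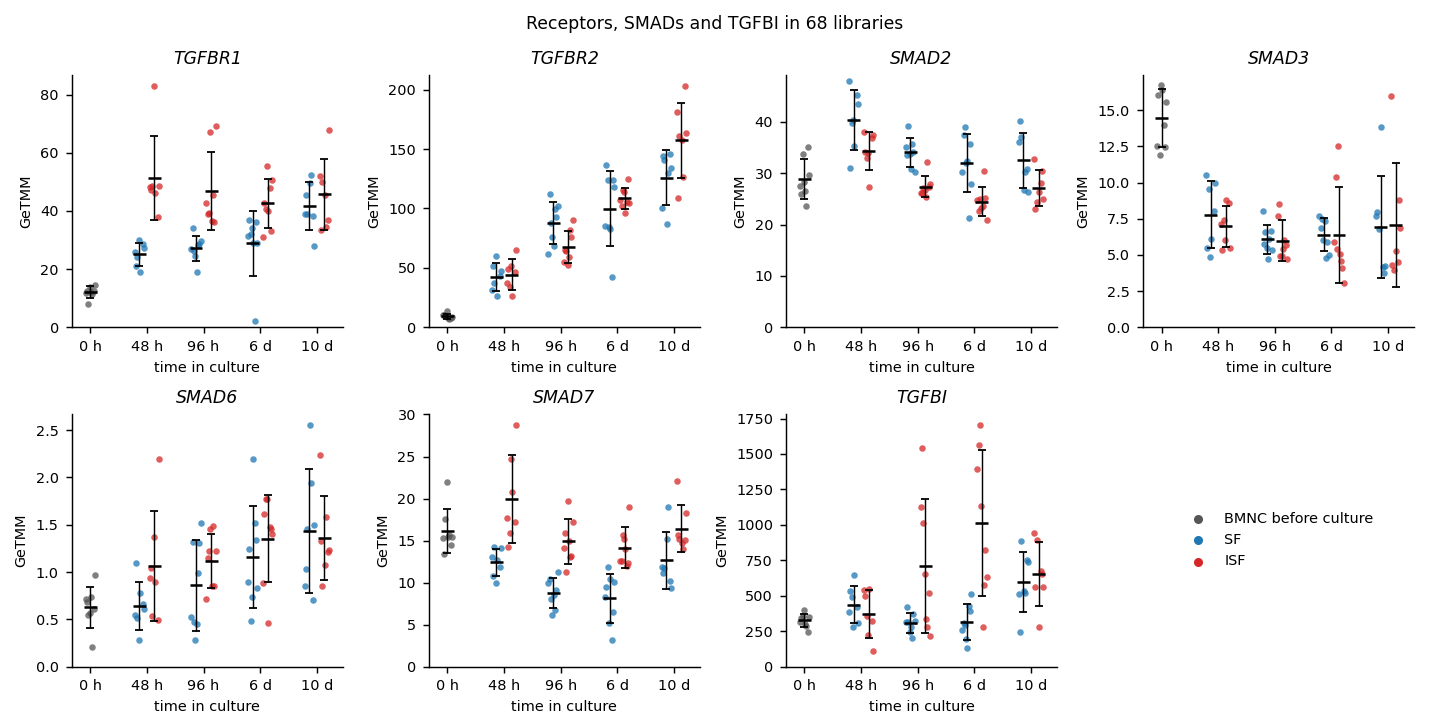
TGFBR1, TGFBR2, SMAD2, SMAD3, SMAD6, SMAD7 and TGFBI in each library (points, 1 per horse) in GeTMM, with axes from 0. Black lines are group means and bars SD. TGFBR2 goes from a mean of 9.40 before culture to 157 in ISF and 126 in SF at 10 days, SMAD3 from 14.5 to 7.09 and 6.91, and TGFBI in ISF is widest at 6 days, from 279 to 1703.

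SMAD2 was the more abundant of the receptor-activated SMADs, and it moved within a narrow range. Fresh BMNC held 23.6 to 35.1 GeTMM (median 27.8). The lowest, median and highest ISF values were 27.3, 34.1 and 38.1 at 48 hours, then 25.4, 26.9 and 32.1 at 96 hours, then 21.0, 24.2 and 30.4 at 6 days, and last 23.1, 26.3 and 32.7 at 10 days. Those of SF were 31.0, 40.4 and 47.9, then 30.2, 33.9 and 39.2, then 21.2, 32.2 and 39.1, and last 26.4, 30.9 and 40.1. The ISF median was the lower at each of the 4 times, although the ranges overlapped throughout.

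From 0 to 48 hours SMAD2 rose by 0.47 in SF (SE 0.10, FDR = 6.04e-05, 7 of 7 horses) and by 0.25 in ISF (SE 0.10, FDR = 0.0279, 6 of 7 horses), the latter lost without Catnip, Dealings, Flash or RimRun (FDR = 0.0585 to 0.0946), with median-of-ratios scaling (FDR = 0.0621) and with voom on the recovered reads (0.15, FDR = 0.219). It then fell by 0.31 in ISF from 48 to 96 hours (SE 0.10, FDR = 0.0172, 7 of 7 horses), a call lost without Catnip, Ollie or RimRun (FDR = 0.0516 to 0.0678) and without the 96 hour ISF cultures of Dealings and Dreamer (FDR = 0.0501). Against SF it was lower in ISF by -0.30 at 96 hours (SE 0.10, FDR = 0.0288, 8 of 8 horses) and by -0.36 at 6 days (SE 0.10, FDR = 0.00271, 7 of 8 horses). The call at 96 hours was lost when Catnip, Dealings, Dreamer, Flash, Lurie or Ollie was omitted (FDR = 0.0582 to 0.11) and without the 96 hour ISF cultures of Dealings and Dreamer (-0.29, FDR = 0.0824). That at 6 days held with every horse omitted in turn, was lost with just these 2 groups in the fit (FDR = 0.0648), and without the SF library of Moon the difference was -0.44 (FDR = 8.7e-05). At 10 days SMAD2 was lower in ISF in 7 of 7 horses, by -0.24 (SE 0.10, FDR = 0.0788). Without Moon this FDR was 0.0301, and without Moon's SF culture of day 6 it was 0.0375. In SF from 48 to 96 hours SMAD2 changed by -0.23, lower in 6 of 7 horses (FDR = 0.0713, or 0.0338 without that culture).

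SMAD3, the partner of SMAD2, was highest before culture, at 11.9 to 16.8 GeTMM (median 14.8). At 48 hours all cultures lay below that range, at 5.33 to 8.77 in ISF (median 7.13) and 4.82 to 10.5 in SF (median 8.01). It fell by 0.97 in ISF (SE 0.21, FDR = 7.79e-05) and by 0.85 in SF (SE 0.21, FDR = 0.00055) on the log2 scale, in 7 of 7 horses each and under all 17 alternatives. Later medians stayed between 5.23 and 6.76 GeTMM, and single libraries came back to the range of fresh cells: Flash in ISF at 6 days (12.5), Lurie in SF at 10 days (13.9) and Catnip in ISF at 10 days. No later step and no difference between the fluids passed the threshold, the difference between fluids lying between -0.11 and 0.01. With SMAD2 up and SMAD3 down over the same interval, the ratio of SMAD2 to SMAD3 went from a median of 1.80 before culture to one of 5.34 (ISF) or 5.64 (SF) at 48 hours.

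SMAD7, which recruits ubiquitin ligases to the receptors, was the inhibitory SMAD that these cells expressed at a substantial level. It was 13.4 to 22.0 GeTMM before culture (median 15.4). The lowest, median and highest ISF values were 14.2, 17.7 and 28.8 at 48 hours, then 11.2, 14.5 and 19.7 at 96 hours, then 11.9, 13.3 and 19.0 at 6 days, and last 13.9, 15.2 and 22.1 at 10 days. Those of SF were 9.98, 12.7 and 14.3, then 6.15, 8.80 and 11.3, then 3.21, 8.90 and 11.9, and last 9.40, 11.7 and 19.0. ISF cultures thus held values near those of fresh cells while all SF cultures lay below the range of fresh cells at 96 hours and 6 days, and at 6 days the fluids did not overlap.

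SMAD7 was higher in ISF by 0.62 at 48 hours (SE 0.16, FDR = 0.0294, 7 of 7 horses), by 0.71 at 96 hours (SE 0.15, FDR = 0.000827, 8 of 8) and by 0.80 at 6 days (SE 0.15, FDR = 3.9e-05, 8 of 8). The calls at 96 hours and 6 days held under all 17 alternatives, and that at 48 hours was lost without Catnip, Dreamer, Flash, Lurie, Ollie or RimRun (FDR = 0.0508 to 0.12). At 10 days the difference of 0.37 had an FDR of 0.0945 (SE 0.16, 5 of 7 horses), which became 0.00901 without Moon in any group and 0.0433 without Moon's SF culture of day 6. In SF the gene fell by 0.47 from 48 to 96 hours (SE 0.16, FDR = 0.0196, 7 of 7 horses) and rose by 0.63 from 6 to 10 days (SE 0.16, FDR = 0.0133, 5 of 7 horses). The fall was lost without Dreamer or Lurie (FDR = 0.0561 to 0.0703). The rise was lost without Moon or Ollie (FDR = 0.052 to 0.174), and without Moon's SF culture of day 6 it was 0.48 (FDR = 0.0593). From 0 to 48 hours in SF the change was -0.35 in 7 of 7 horses, with an FDR of 0.0618 that was 0.0347 with the replicate block, 0.0296 without Moon and 0.0291 without its SF library at 6 days. In ISF from 48 to 96 hours SMAD7 changed by -0.38, lower in 6 of 7 horses (FDR = 0.0877, or 0.0366 without that SF library).

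SMAD6, which acts mainly on BMP receptors, was found at low level, from 0.204 to 2.56 GeTMM over all libraries (6 to 83 reads). Its medians were 0.645 before culture, 0.935, 1.18, 1.47 and 1.23 in ISF and 0.610, 0.754, 1.07 and 1.45 in SF in order of time. No comparison of SMAD6 passed the threshold under the main or any alternative setting.

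TGFBI, a secreted matrix protein that binds integrins and collagen and is made by macrophages, was the most abundant member in 65 of 68 libraries, TGFB1 being higher in the other 3. It was 245 to 401 GeTMM before culture (median 329). In ISF the lowest, median and highest values were 108, 355 and 544 at 48 hours, then 214, 583 and 1539 at 96 hours, then 279, 978 and 1703 at 6 days, and last 278, 656 and 940 at 10 days. In SF they were 282, 417 and 648 at 48 hours, then 204, 313 and 422 at 96 hours, then 131, 300 and 510 at 6 days, and last 241, 534 and 887 at 10 days. The ISF median was highest at 6 days and the SF median was lowest on that day.

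At 6 days TGFBI was higher in ISF by 1.59 on the log2 scale (SE 0.33, FDR = 0.000127, 8 of 8 horses), with a ratio within a horse of 1.25 to 5.87 (median 3.61), and this call held under all 17 alternatives. At 96 hours ISF was higher in 7 of 8 horses by 0.93 (SE 0.33, FDR = 0.056). The FDR was 0.0286 with the replicate block, 0.0161 to 0.0425 without Lurie, Moon or RimRun, and 0.0414 without Moon's SF culture of day 6. Without the 96 hour ISF cultures of Dealings and Dreamer the difference was 0.56 (FDR = 0.374), and over all alternatives the FDR ran from 0.00358 to 0.374. At 48 hours TGFBI was lower in ISF in 6 of 7 horses, by -0.36, and at 10 days the difference was 0.14, neither past the threshold (FDR = 0.705 and 0.84). No step over time in either fluid was past the threshold. In ISF the change from 48 to 96 hours, 0.81 in 6 of 7 horses (FDR = 0.0881), had an FDR of 0.0456 with the replicate block and 0.0243 to 0.0381 without Lurie or Moon, and in SF the change from 6 to 10 days, 0.94 in 6 of 7 horses (FDR = 0.0862), had one of 0.0409 without Dealings.

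Whether the difference between the fluids itself changed from one time point to the next was tested in the same fit. No member passed from 48 to 96 hours (0.0206% of all tested genes did), from 96 hours to 6 days (0% did) or from 6 to 10 days (0.226% did), and 1 of 9 members had an unadjusted p under 0.05 in each interval. The largest values were those of TGFBI, whose ISF change exceeded its SF change by 1.29 from 48 to 96 hours (SE 0.48, FDR = 0.66) and fell short of it by -1.46 from 6 to 10 days (SE 0.48, FDR = 0.145). For TGFBR2 the change from 96 hours to 6 days was 0.56 larger in ISF (SE 0.24, FDR = 0.781). The fluids are therefore not shown to diverge or converge for any member between these times.

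Markers of the cell types that BMNC hold moved alongside these results, and their part in them was not tested. Of all tested genes, 52.7% in ISF and 45.4% in SF passed the threshold from 0 to 48 hours. Between the fluids 0.872%, 6.16%, 16.7% and 9.95% were higher in ISF in order of time, and 0.81%, 4.3%, 13.6% and 10.8% lower. The marker counts here and in the next paragraph stand beside these shares. All 7 macrophage markers (CD68, CD163, MRC1, GPNMB, SPP1, TREM2 and MSR1) rose from 0 to 48 hours in both fluids, their summed level going from 184 to 307 GeTMM before culture to 14796 to 27364 in ISF and 7548 to 13818 in SF. Between the fluids 1, 2, 1 and 1 of the 7 were higher in ISF in order of time and 0, 1, 1 and 0 lower (1 higher at 96 hours without the cultures of Dealings and Dreamer), and at 10 days the sums were 47200 to 82485 in ISF and 29897 to 75174 in SF. All 5 T cell markers (CD3D, CD3E, CD3G, CD2 and LCK) were lower in ISF at 6 and 10 days and 4 of 5 fell by 48 hours in each fluid. Their sum was 127 to 321 GeTMM before culture, 29.8 to 123 in ISF and 38.8 to 233 in SF at 48 hours, and 4.33 to 14.8 in ISF and 23.5 to 199 in SF at 10 days.

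Neutrophil precursor markers, 6 found of 8, had a sum of 11356 to 20997 GeTMM before culture and of 0.759 to 63.7 in ISF and 2.15 to 1648 in SF at 10 days, with 5 of 6 lower in ISF at 6 days (3 of 6 without Moon's SF culture of that day). Megakaryocyte or platelet markers, 4 found of 5, come from cells rich in TGF-beta1. Their sum was 480 to 1151 before culture, 2.18 to 182 in ISF and 16.3 to 644 in SF at 6 days (3 of 4 lower in ISF), and 1.24 to 9.62 and 1.64 to 75.6 at 10 days. Erythroid markers, 4 found of 5, all fell by 48 hours in both fluids, from 76.2 to 1230 before culture to at most 27.0, and ALAS2 was at 0 in every ISF library at 10 days. Of the 4 endothelial markers, 2 were tested and both fell by 48 hours in each fluid. Their sum did not exceed 13.1 GeTMM in any library, and KDR was at 0 in every library of 3 groups. Cell cycle markers, 4 found of 5, were higher in ISF for 2 of 4 at 96 hours (1 of 4 without the cultures of Dealings and Dreamer) and 3 of 4 at 6 days, with sums at 6 days of 65.7 to 168 in ISF and 29.9 to 132 in SF. Fibroblast or stromal markers, all 5 lower in ISF at 10 days, summed to 0.406 to 4038 in SF and 0.123 to 49.2 in ISF on that day, and at 48 hours to at most 2.04 in either fluid.

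The wider pathway was followed with 73 other genes, of which 71 were in the table and 60 were tested. Of these 60, 5 were higher and 0 lower in ISF at 48 hours (0.872% and 0.81% of all tested genes were), 13 higher and 3 lower at 96 hours (6.16% and 4.3%), 17 higher and 4 lower at 6 days (16.7% and 13.6%), and 9 higher and 11 lower at 10 days (9.95% and 10.8%). Without the 96 hour ISF cultures of Dealings and Dreamer the counts at 96 hours were 9 higher and 2 lower, those of the other times being unaltered. Without Moon's SF culture of day 6 they were 7 and 3, 15 and 3, 13 and 10, and 11 and 14 in order of time, so that at 6 days the number lower in ISF was 10 in place of 4. Shares of all tested genes without these cultures are not given, here or for the lists below. These counts therefore cannot be read as a change of the pathway. The median log2 difference over the 60 was 0.02, 0.04, 0.11 and -0.08 in order of time, beside -0.02, 0.00, 0.00 and -0.02 over all tested genes.

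Of the other receptors, 8 of 11 were tested, and 2, 3, 5 and 2 of them were higher in ISF in order of time, with none lower (2, 4, 3 and 3 without Moon's SF culture of day 6). At 96 hours 2 were higher without the ISF cultures of Dealings and Dreamer. ACVRL1, a type I receptor shared by BMP9 and TGF-beta, differed at all 4 times, by 1.09, 1.94, 2.65 and 1.68 on the log2 scale (FDR = 0.0409, 1.4e-06, 6.02e-11 and 2.74e-05). Its medians at 6 days were 51.3 GeTMM in ISF and 6.01 in SF, higher in ISF in 8 of 8 horses. ENG, the coreceptor endoglin, was higher by 0.72, 0.78 and 0.99 up to 6 days (FDR = 0.0389, 0.00276 and 2.59e-05), and at 10 days by 0.52 (FDR = 0.0504, or 0.0405 without Moon's SF culture of day 6). The type I receptor TGFBR1 and these partners were thus called higher in ISF at overlapping times, with the limits on the TGFBR1 calls given above. The type II receptor TGFBR2 was not called, its difference running from -0.36 at 96 hours to 0.32 at 10 days. The receptors were not tested against each other.

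Of the genes for latency and activation, 11 of 13 were tested, and 1, 3, 3 and 1 were higher and 0, 1, 0 and 1 lower in ISF in order of time (1, 1, 2 and 3 lower without Moon's SF culture of day 6). At 96 hours 2 were higher without the ISF cultures of Dealings and Dreamer. ITGB1, the beta1 integrin chain, was higher by 0.61, 1.21 and 0.97 from 96 hours on (FDR = 0.00137, 3.04e-10 and 1.06e-06), at 446 to 534 GeTMM in ISF and 208 to 371 in SF at 10 days. FURIN, which cleaves the TGF-beta precursor, was higher by 0.82 at 96 hours and 0.87 at 6 days (FDR = 0.0153 and 0.00299), the former being 0.70 (FDR = 0.0866) without the 96 hour ISF cultures of Dealings and Dreamer. THBS1, thrombospondin 1, an activator of latent TGF-beta that platelets also carry, was lower by -2.17 at 96 hours (FDR = 0.00816), at 0.838 to 13.1 GeTMM in ISF and 8.46 to 76.2 in SF. Its differences at 48 hours, 6 days and 10 days, of -1.98, -1.35 and -1.52, were not past the threshold, but were so without Moon's SF culture of day 6 (FDR = 0.0303, 0.00815 and 0.0404), where the value at 6 days was -1.81.

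Of the other ligands of the family, 6 of 10 were tested, and the calls were confined to low levels at 6 days (BMP4, lower in ISF) and 10 days (GDF15 higher and INHBB lower), all with means under 2 GeTMM. Of the other SMADs and their partners, 6 of 8 were tested. ZFYVE9, the anchor for SMAD2 and SMAD3, was lower in ISF at 96 hours (-0.41, FDR = 0.00321), and CREBBP, a coactivator, at 10 days (-0.58, FDR = 0.0256). Without Moon's SF culture of day 6, CREBBP was also lower at 48 hours (FDR = 0.0279) and 6 days (-0.44, FDR = 0.011), and ZFYVE9 at 6 days (-0.29, FDR = 0.0123).

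Of the inhibitors, 16 of 17 were tested, with 0, 3, 3 and 2 higher and 0, 1, 2 and 5 lower in ISF. Without Moon's SF culture of day 6 the counts were 2, 3, 2 and 3 higher and 0, 1, 3 and 5 lower. At 96 hours they were 2 higher and 0 lower without the ISF cultures of Dealings and Dreamer. PMEPA1, a TGF-beta induced inhibitor that sequesters SMADs, was higher by 1.62 at 96 hours and 1.63 at 6 days (FDR = 3.4e-05 and 5.94e-06), at 4.26 to 19.4 GeTMM in ISF and 1.14 to 4.20 in SF at 6 days. SKIL, a SMAD corepressor, was higher by 0.71 and 0.69 at these times (FDR = 0.0442 and 0.0227), and the corepressor TGIF1 by 0.61 at 10 days (FDR = 0.0202). The SKIL call at 96 hours was lost without the cultures of Dealings and Dreamer (FDR = 0.0806). Without Moon's SF culture of day 6 its difference at 6 days was 0.28 (FDR = 0.128), and that at 48 hours, 0.62, was called (FDR = 0.00892). LDLRAD4 was lower by -0.56 at 6 days (FDR = 0.0457). DCN and BGN, matrix proteoglycans of stromal cells that bind TGF-beta, were lower by -2.41 and -1.93 at 10 days (FDR = 0.00779 and 0.0158). These last values follow few libraries, since in SF at 10 days DCN was at 422 GeTMM in Lurie, 35.6 in Dreamer and 19.2 in Dealings, and at 2.61 or less in the other 4 horses.

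Of the genes used as targets of the pathway, 13 of 14 were tested, with 2, 4, 6 and 3 higher and 0, 0, 1 and 3 lower in ISF. Without Moon's SF culture of day 6 the counts higher were 2, 5, 5 and 3. At 96 hours 3 were higher without the ISF cultures of Dealings and Dreamer. TIMP1, an inhibitor of matrix proteases, was higher at all 4 times, by 2.04, 2.34, 2.56 and 1.32 (FDR = 0.00185, 7.46e-06, 1.68e-07 and 0.0114), at 218 to 801 GeTMM in ISF and 55.8 to 107 in SF at 48 hours. ACTA2, smooth muscle actin, was higher by 2.92 at 96 hours and 2.93 at 6 days (FDR = 0.000197 and 4.38e-05), with medians of 231 GeTMM in ISF and 32.3 in SF at 6 days. KLF10 was higher by 0.89, 0.85 and 0.88 from 48 hours to 6 days (FDR = 0.025, 0.00473 and 0.00111). ID2, a target of BMP signals too, was higher by 0.65, 1.10 and 0.66 from 96 hours on (FDR = 0.0259, 2.24e-05 and 0.0231), the value at 96 hours being 0.63 (FDR = 0.0718) without the cultures of Dealings and Dreamer. ID3, another such target, was lower by -0.94 at 6 days and -0.92 at 10 days (FDR = 0.00765 and 0.0206). The collagens COL1A1 and COL1A2 were lower by -3.16 and -3.23 at 10 days (FDR = 0.00725 and 0.00289), and like DCN they were high in few SF libraries, with COL1A1 at 1359 GeTMM in Lurie and 0.407 in Catnip.

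**Figure D5:**
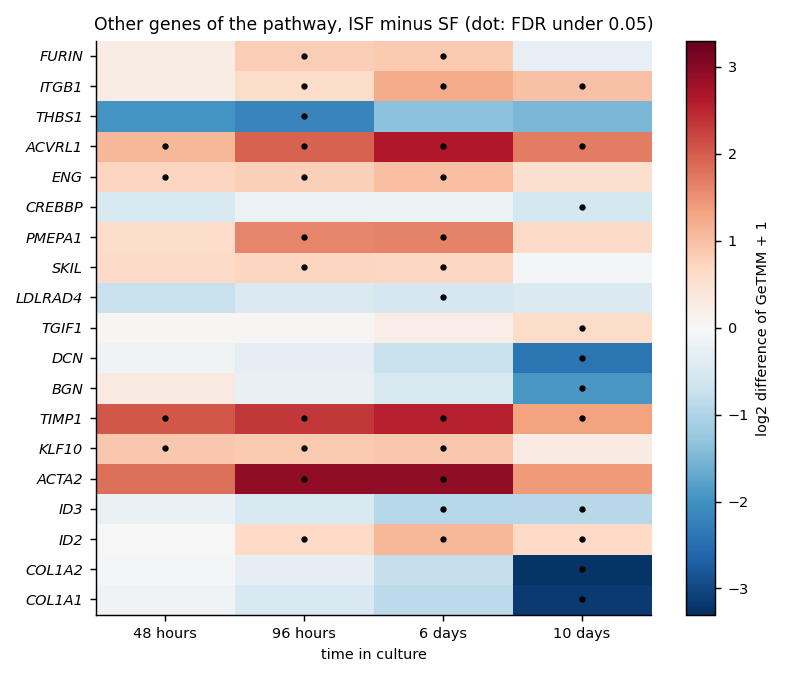
Log2 difference between ISF and SF for the 19 other genes of the pathway named by rule, at 4 times. Red cells are higher in ISF, blue cells lower, and a dot marks an FDR under 0.05. ACVRL1 and TIMP1 carry a dot at all 4 times, and COL1A1, COL1A2, DCN and BGN only at 10 days.

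Finally, the genes whose level ran most like that of each member over the 68 libraries were sought among genes with a mean of at least 5 GeTMM. These libraries share horses, fluids and times, so the correlations are descriptions only. Without the 3 libraries that stood apart, the values of the 20 pairs lay between 0.505 and 0.985 over 65 libraries, the largest shifts being those of RNPEPL1 with TGFB1 (to 0.644) and SPRYD3 with SMAD7 (to 0.635). For TGFB3 they were OCSTAMP (r = 0.893 over 68 libraries, 0.756 within the 30 ISF and 0.754 within the 30 SF libraries) and TMEM26 (0.892, 0.833 and 0.765). OCSTAMP is known from the fusion of osteoclasts and macrophages. For TGFBR2 they were RTN4 (0.982, 0.957 and 0.946) and CCSER2 (0.962, 0.935 and 0.874), the closest pair of any member.

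For TGFBR1 the nearest genes were ELK3 (0.896 over all 68, 0.137 within ISF and 0.884 within SF) and SKIL (0.889, 0.596 and 0.846). For TGFB1 they were GLI4 (0.830, 0.789 and 0.850) and RNPEPL1 (0.732, 0.553 and 0.804), and for TGFBI FHL3 (0.778, 0.810 and 0.815) and TNFSF9 (0.764, 0.818 and 0.577). SMAD2 ran most like COP1 (0.776, 0.752 and 0.592) and MBP (0.760, 0.711 and 0.639), SMAD3 most like the leukocyte integrin ITGAL (0.751, 0.576 and 0.569) and SPTAN1 (0.742, 0.381 and 0.552), and SMAD7 most like RELT (0.737, 0.547 and 0.620) and SPRYD3 (0.723, 0.265 and 0.747). The values were lower for SMAD6, with KDELR3 at 0.650 and MAMDC2 at 0.647, and for TGFB2, with METTL23 at 0.586 and BEX3 at 0.584, where most values rest on few reads. Among the members themselves TGFB3 and TGFBR2 had the highest correlation over all libraries (0.642, with 0.534 within ISF and 0.560 within SF). Within each fluid TGFBR1 and SMAD7 had a higher one (0.583 in ISF and 0.599 in SF). The SF library of Moon at 6 days held the lowest value of both genes among all libraries, 2.30 and 3.21 GeTMM. Correlations within SF are not given without it, which also limits those of TGFBR1 with ELK3 and SKIL.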

How the data were processed

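The table, as deposited, holds GeTMM values, akin to RPKM: the read count of a gene per kilobase, taken relative to the sum of such rates in its library and scaled with TMM factors by the authors with edgeR. Per the labels, reads were mapped to EquCab3.0 with STAR 2.7.2a. The paper's methods name DESeq2 on counts for the authors' own tests, which were not used here. No replicates were pooled. Reads on genes were recovered from the steps between values, and every value of all 24065 genes above 0 lay within 0.02 reads of a whole number. Values near 1 read (0.0337 to 0.0979 GeTMM on 1 kilobase, depending on the library) are imprecise, and intervals or limits from reads cover counting error only.

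The tests (two-sided) used the lmFit and trended eBayes functions of limma 3.58.1, run in R 4.3.3, on log2(GeTMM + 1), in 1 fit of 68 libraries and 9 groups without a term for horse, adjusted by Benjamini-Hochberg over 14570 genes (at least 0.5 GeTMM in at least 7 libraries). A pseudocount of 1 understates changes of low genes such as TGFB3 at 0 hours. The fit was also run on simulated libraries drawn independently, with no effect of horse. That run cannot show how pairing by horse bears on these FDRs. The same horses gave the cells of all groups, so samples are paired by horse: deviations from group means of the ISF and SF libraries of a horse correlated at -0.22 to 0.56 (median 0.36, over 0.1 in 26 of 30 pairs), and the replicate block is an alternative. The other alternatives were a pseudocount of 0.1, no filter, only the groups compared, median-of-ratios scaling, library weights, voom on recovered reads, each horse left out, and the 2 doubtful sets of libraries left out. Listed genes, markers and correlations without those libraries were added after seeing the data.

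All 10 members are named in every comparison. From each pathway list and each comparison of the fluids, up to 2 called genes with the highest and up to 2 with the lowest log2 difference are named, among genes with a mean of at least 5 GeTMM in either fluid, and for each member the 2 genes most correlated with it. BMP4, GDF15, INHBB and ZFYVE9 were named after their values were seen. The members, lists and markers were chosen with earlier results of these data known. Gene symbols are those of the table. Sequences, coordinates and 1 of the marker lists are not reported here. Figures were drawn with matplotlib 3.10.9 in Python 3.11.15.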

Additional observations from a re-analysis of the deposited data

Results flagged for a closer look

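By Dixon's criterion on the log2 scale, single horses stood apart from their group in 12 of the 90 sets of member and group. The criterion marks about 1 in 20 by chance only for independent sets with a normal spread. TGFB2 lies near the limit of detection and some sets share a library, so these 12 sets are not compared with that rate. The SF library of Moon at 6 days accounted for 3 of them, with TGFB1 at 481 GeTMM (other 7 horses 124 to 201), TGFBR1 at 2.30 (28.9 to 36.7) and TGFBR2 at 42.3 (82.5 to 137).

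RimRun at 96 hours in SF had TGFB1 at 291 GeTMM (others 120 to 167) and TGFB2 at 0.677 (0 to 0.145). The other TGFB2 values were 0.940 in Moon in ISF at 6 days (others 0 to 0.151) and 0.188 in Dealings in SF at 48 hours (0 to 0.0204, from 6 reads in that library). TGFBR1 was low in Dreamer before culture, at 7.92 (others 11.5 to 14.7), and high in Flash in ISF at 48 hours, at 82.8 (37.8 to 48.5).

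SMAD2 was 32.1 in Moon in ISF at 96 hours (others 25.4 to 28.0). TGFBI at 10 days was 278 in Lurie in ISF (563 to 940) and 241 in Dealings in SF (511 to 887). Lurie also had the lowest TGFBI of ISF at 6 days, 279 GeTMM. No cause was tested for these values.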

How the results depend on the processing

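Of 30 changes or differences called for single members, none changed direction under 17 alternatives, and 441 of 510 values kept their side of the threshold. The number of members called between the fluids at 48 hours (2) was 1 with a pseudocount of 0.1 and 4 with library weights. At 96 hours (4) it was 2 without the 96 hour ISF cultures of Dealings and Dreamer, at 6 days (5) it was 3 with only the groups compared, and at 10 days (1) it was 2 with library weights or voom and 3 without Moon's SF culture of day 6. In ISF from 48 to 96 hours (3) it was 5 with library weights and 1 without the libraries of Dealings and Dreamer. In ISF from 6 to 10 days (0) it was 1 with only the groups compared, the replicate block, median-of-ratios scaling, library weights, voom, or without Moon's library. In SF from 6 to 10 days (1) it was 2 with the replicate block and 0 with only the groups compared, voom, or without Moon's library. The causes were not tested. The replicate block also brought a call for TGFBR1 in SF from 6 to 10 days (FDR = 0.0302) and for SMAD7 and TGFBI as given above.

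With each horse omitted in turn, the counts between the fluids had ranges of 0 to 3 (48 hours), 2 to 5 (96 hours), 4 to 6 (6 days) and 1 to 3 (10 days). From 48 to 96 hours they ranged from 1 to 4 in ISF and 1 to 3 in SF, and from 6 to 10 days from 0 to 2 in each fluid. These fits hold fewer libraries, and shares of all tested genes are not given for any alternative. Calls of single members were also lost for TGFBR1 between the fluids at 96 hours with no filter (FDR = 0.0626) and at 6 days with library weights (0.0654), and for TGFB3 in ISF from 48 to 96 hours with a pseudocount of 0.1 (0.0605), no filter (0.0764) or only the groups compared (0.153). TGFB3 in SF from 0 to 48 hours was lost with voom (0.0797), and SMAD7 in SF from 6 to 10 days with only the groups compared (0.389), library weights (0.0502) or voom (0.0632). Correlations within each fluid are given beside the pooled ones. Depth limits TGFB2 and SMAD6, whose values rest on at most 86 and 83 reads, and 7 or 8 horses per group with 1 well each limit the rest.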
